A study of Homo sapiens with 12 samples.

Results

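Read counts of 9 nonsense-mediated decay factors, UPF1, UPF2, UPF3A, UPF3B, SMG1, SMG5, SMG6, SMG8 and SMG9, were taken from RNA sequencing of HEK293T cells, an established line derived from human embryonic kidney. The genes were chosen by symbol, and each matched 1 of the 58735 gene identifiers in the deposited count tables. Per the labels, all cells were of this 1 line and RNA was taken 24 h after transfection. A group of 3 libraries came from cells given 500 ng of a plasmid for miR-211, and 3 libraries, labelled only Control, are taken to come from cells given 500 ng of a control plasmid. Another 3 libraries came from cells in which U1, the small nuclear RNA of the splicing machinery, was targeted with 1 nM of a siRNA of the Dicer-substrate type (labelled U1 siRNA WT), and 3 came from cells given a scrambled oligo (labelled Scram WT), whose dose the labels do not state. The labels put the share of transfected cells at 50% or more by GFP, and no value here gives the share in each library. They state 30% inhibition of U1. The title of the series names the splicing of mRNA and microRNAs that lie in introns, and gene counts such as these do not measure splicing.

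Nonsense-mediated decay destroys mRNAs on which a ribosome stops too early. The RNA helicase UPF1 is recruited to the stalled ribosome, UPF2 and UPF3B link it to exon junction complexes left behind by splicing, and the kinase SMG1, held in check by SMG8 and SMG9, phosphorylates UPF1. Phosphorylated UPF1 then binds SMG6, an endonuclease that cuts the mRNA, and SMG5, an adaptor that leads to decapping, deadenylation and dephosphorylation of UPF1. The pathway also lowers many normal transcripts, and mRNAs of several of its own factors are among its reported substrates. U1 recognises 5 prime splice sites, and mis-spliced transcripts with early stop codons are classic substrates of the pathway.

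Counts over all genes ranged from 4515728 to 9290686 per library. U1 siRNA replicate 2 had the lowest total and stood apart: of its pairs with a unique position, 44.5% fell outside the exons of annotated genes, against 14.5% to 25.5% in the other 11 libraries. Genes known to be active in HEK293 cells were present, with medians of 51.7 CPM (the usual depth-scaled count, relative to each library's total of gene counts) for VIM, 86.9 for NEFL, 21.1 for NEFM and 20.2 for CDH2, whereas PAX2 and LHX1 had medians of 0.195 and 0.113 CPM. Summed over 5 genes each, fibroblast markers had 3.00 to 17.1 CPM and blood cell markers 1.42 to 7.31 CPM, both highest in U1 siRNA replicate 2. Melanocyte markers, also 5 genes, had 11.5 to 22.6 CPM summed, again highest in U1 siRNA replicate 2, and among them MITF had a median of 11.8 CPM. That library also had the most genes with a count, 39294.

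The mature miR-211-5p sequence (RefSeq, GRCh38.p14, chromosome 15, 31065095 to 31065116, minus strand) and the only 2 matches found in annotated 3 prime UTRs of the 9 genes (GENCODE 29, GRCh38) are shown because a direct action of the microRNA on these mRNAs would be looked for there. Capitals mark bases 2 to 8 of the microRNA and the matching bases of each site.
hsa-miR-211-5p: uUCCCUUUgucauccuucgccu
UPF3B: caaagaatagagagAAAGGGAgccg
SMG1: ttacttctgaaatgAAGGGAAaaaa
The UPF3B match (chromosome X, 119834776 to 119834782, minus strand) is complementary to bases 2 to 8 and was present in 3 of 4 annotated coding transcripts with a 3 prime UTR. The SMG1 match (chromosome 16, 18808942 to 18808948, minus strand) is complementary to bases 2 to 7 followed by an adenine and was present in 2 of 7. None of the 9 genes held the full 8mer AAAGGGAA, which 10.95% of 11834 protein-coding genes with a mean above 1 CPM held. Any match, the 8mer or the 7mers AAAGGGA and AAGGGAA on the transcript's own strand, was found in 2 of 9 factors (22.2%) and in 32.6% of those genes. The 7mers overlap each other within the 8mer.

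Levels of the factors spread widely. On the scale of CPM per kb of exon not shared with another gene, over all 12 libraries, UPF3B had the highest level, 39.0 ± 2.69 (SD, n = 12), and UPF2 followed with 12.8 ± 0.602. UPF3A, the paralog of UPF3B, had 4.04 ± 0.514, the adaptor SMG5 3.65 ± 0.510, the kinase regulator SMG8 3.36 ± 0.561 and the kinase SMG1 2.44 ± 0.227. The other regulator of the kinase, SMG9, had 0.882 ± 0.164, the endonuclease SMG6 0.649 ± 0.209 and the helicase UPF1 0.493 ± 0.141. UPF3B lay above UPF2, and UPF2 above UPF3A, in every library. The ranges of the 12 libraries overlapped for UPF3A and SMG5, SMG5 and SMG8, SMG8 and SMG1, SMG9 and SMG6, and SMG6 and UPF1. Within libraries, UPF3A was above SMG5 in 8 of 12, SMG5 above SMG8 in 8, SMG8 above SMG1 in 11, SMG9 above SMG6 in 11 and SMG6 above UPF1 in 9. SMG1 and SMG9 did not overlap. UPF3A made up 8.86% to 9.73% of the summed UPF3A and UPF3B levels per kb in the 4 group means. With the longest coding transcript as the length, SMG1 moved above SMG8 (3.91 against 3.21 CPM per kb) and no other rank changed. Distances did change: UPF3A then had 9.78 CPM per kb (8.20 to 12.8), wholly above SMG5 (3.41 to 5.19), and UPF3B 50.5. The overlaps, the counts within libraries and the share of UPF3A given above therefore hold for exon not shared alone.

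UPF1, the central helicase, had the lowest level of the 9 by exon not shared and by the longest coding transcript. It had 13 to 53 counts per library. With all annotated exon as the length, SMG6 would lie just below UPF1. The level of a gene in these libraries fell with the GC content of its transcript: among 11885 protein-coding genes with a mean above 1 CPM, the median level was 5.22 CPM per kb where the longest coding transcript had under 40% GC, 4.19 between 40% and 45%, 3.39 between 45% and 50%, 1.60 between 55% and 60%, and 0.724 from 60%. Here the length was all annotated exon, whereas for the factors it was exon not shared with another gene. Among the factors these lengths differ for SMG1, SMG6 and SMG8, most for SMG6 (10554 against 7876 bases). Spearman's rho across the 11885 genes was -0.25, a description only, since genes of 1 set of libraries are not independent. The 4 factors with the highest GC content were UPF1 (60.5%), SMG5 (57.6%), SMG9 (55.3%) and SMG6 (55.3%), and they included the 3 lowest levels, whereas UPF2 (40.3%) and UPF3B (41.8%) had the lowest GC content and the 2 highest levels. Others departed from this order: SMG1 (43.2% GC) had 2.44 CPM per kb, below the median of 4.19, and SMG5 had 3.65, above the median of 1.60. Across the 9 factors rho was -0.70. The part of GC content in the order of the factors was not tested.

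**Figure D1:**
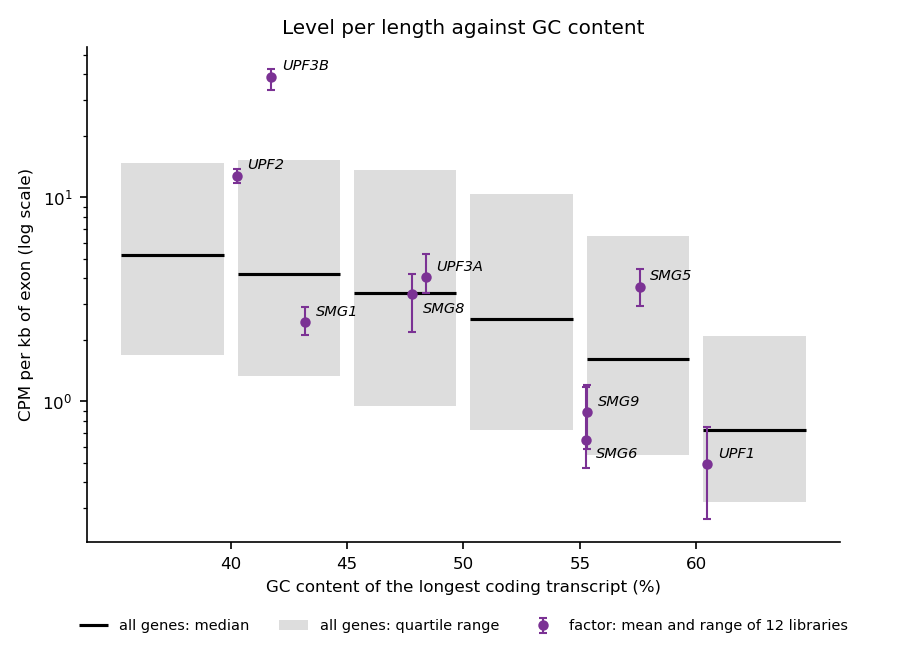
Level of each factor (CPM per kb of exon not shared, log scale, point and bar for the mean and range of 12 libraries) against the GC content of its longest coding transcript in %. Grey bars and black lines give the quartile range and median of 11885 protein-coding genes by GC content, per kb of all annotated exon. The first bar stands for all under 40% and the last for all from 60%. UPF3B and UPF2 sit high at low GC content, and SMG9, SMG6 and UPF1 sit low at 55% GC or more. SMG1 lies below and SMG5 above the median at its GC content.

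What a count of SMG1 or SMG6 covers is limited. SMG1 (chromosome 16, 18804853 to 18926454) has partial copies on the same chromosome, and the 7 annotated pseudogenes SMG1P1 to SMG1P7 took 22.8% to 31.3% of the summed counts of SMG1 and its copies, while reads that fit several copies equally were not counted. Counts of SMG1 and its copies are therefore uncertain. Of the copies, SMG1P4 had 1.79 ± 0.242 CPM with miR-211 and 0.987 ± 0.309 with the control plasmid (SD, n = 3 each; edgeR, unadjusted p 0.0400, adjusted p 0.996). With the replicate number as a block, SMG1P2 also had an unadjusted p under 0.05 (0.0239, adjusted p 0.645, edgeR), at a log2 fold change of -0.56. Of all genes tested, 7.43% reached this with the block. The lowest value of the copies with miR-211 was that of SMG1P1, 1.43 ± 0.117 against 2.40 ± 0.697 CPM, with no overlap between the groups. Its log2 fold change was -0.70 (edgeR, unadjusted p 0.0713, adjusted p 0.996). Groups of SMG1P4 did not overlap either, in the other direction, against 9.70% of all genes tested. SMG1P1 and SMG1P4 had only 148 and 110 counts summed over the 12 libraries. With U1 siRNA the ends among the copies tested were SMG1P5 (-0.15) and SMG1P1 (0.49). Of the exons of SMG6 (chromosome 17, 2059839 to 2303771), 74.6% by length were free of other genes, the largest overlap being 2419 bases with the tumour suppressor gene HIC1 on the opposite strand. Counted on each strand separately, SMG6 had 1.54 times the pairs of the unstranded count, against 1.00 to 1.02 times for the other 8 factors. Which of the added pairs belong to SMG6 cannot be told apart.

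In the first comparison, cells given the miR-211 plasmid were set against cells given the control plasmid, and none of the 9 factors passed the test (edgeR quasi-likelihood test, adjusted p 0.996 to 0.997). Over all 12685 genes tested, 0.00788% passed, which is 1 gene. At an unadjusted p under 0.05 there was 1 factor by edgeR (SMG6), where 3.29% of all genes reached this, and 0 by DESeq2, where 0.431% of 44268 genes reached this and 0.00226% passed after adjustment. With the replicate number as a block it was again SMG6 alone (unadjusted p 0.0339, edgeR), where 7.43% of all genes reached this. DESeq2 was run on every gene with a count, without the edgeR filter on low counts, so its shares and those of edgeR cover unlike sets of genes. In bulk RNA, a change in all cells and a change in some cells cannot be told apart. Values of 5 of 9 factors were higher, against 51.8% of all genes, and the median log2 fold change was 0.0048, against 0.0079 over all genes tested. Fold changes and these counts use TMM scaling, on which a value can lie on the other side of 0 from the plain CPM means: by mean CPM 4 of 9 factors were higher with miR-211, against 44.5% of all genes tested.

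Among the factors that recognise the stop, UPF1 (chromosome 19, 18831938 to 18868236) had 3.46, 3.43 and 4.66 CPM with miR-211 and 4.66, 3.02 and 5.08 CPM with the control plasmid. These groups overlapped, with a log2 fold change of -0.11 (SE 0.26). UPF2, the bridge between UPF1 and UPF3B (chromosome 10, 11920022 to 12043170), had 75.8 ± 2.28 against 76.9 ± 4.04 CPM (SD, n = 3 each) and a log2 fold change of 0.0048 (SE 0.085). UPF3A (chromosome 13, 114281584 to 114305817) had 22.3 ± 1.65 against 22.2 ± 2.64 CPM. UPF3B (chromosome X, 119805311 to 119852998), which binds the exon junction complex and carries the 7mer shown above, had 109, 115 and 116 CPM with miR-211 and 118, 122 and 124 CPM with the control plasmid. All miR-211 libraries were lower than all controls, but by little: the log2 fold change was -0.072 (SE 0.077, edgeR, unadjusted p 0.368 and adjusted p 0.996).

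Among the kinase and its regulators, SMG1, the other gene with a 7mer, had 64.0 ± 7.05 against 67.2 ± 6.55 CPM (log2 fold change -0.044, SE 0.10). SMG8 (chromosome 17, 59209400 to 59215247) had 11.5 ± 0.984 against 10.8 ± 1.05 CPM. SMG9 (chromosome 19, 43727992 to 43754990) had 6.39 ± 1.58 against 7.16 ± 0.737 CPM. The groups overlapped for all of these.

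Of the factors bound by phosphorylated UPF1, SMG5 (chromosome 1, 156249224 to 156282825) had 19.8 ± 3.09 against 19.7 ± 2.62 CPM. SMG6 had 4.78, 4.85 and 7.502 CPM with miR-211 and 4.50, 3.74 and 4.14 CPM with the control plasmid. The groups did not overlap, and replicate 3 of miR-211 stood well above the rest. The log2 fold change was 0.51 (SE 0.24, edgeR, unadjusted p 0.0488, adjusted p 0.996), resting on 26 to 58 counts per library, and it was 0.26 without miR-211 replicate 3 and 0.31 and 0.36 in the separate strand columns. In the share of pairs outside exons the libraries of that pair differed by the most, 22.9% with miR-211 and 16.8% in the control of the same number, and the part of this share in the value was not tested. With UPF3B, SMG6 was 1 of 2 factors whose groups did not overlap (22.2% of 9), against 9.70% of all genes tested.

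**Figure D2:**
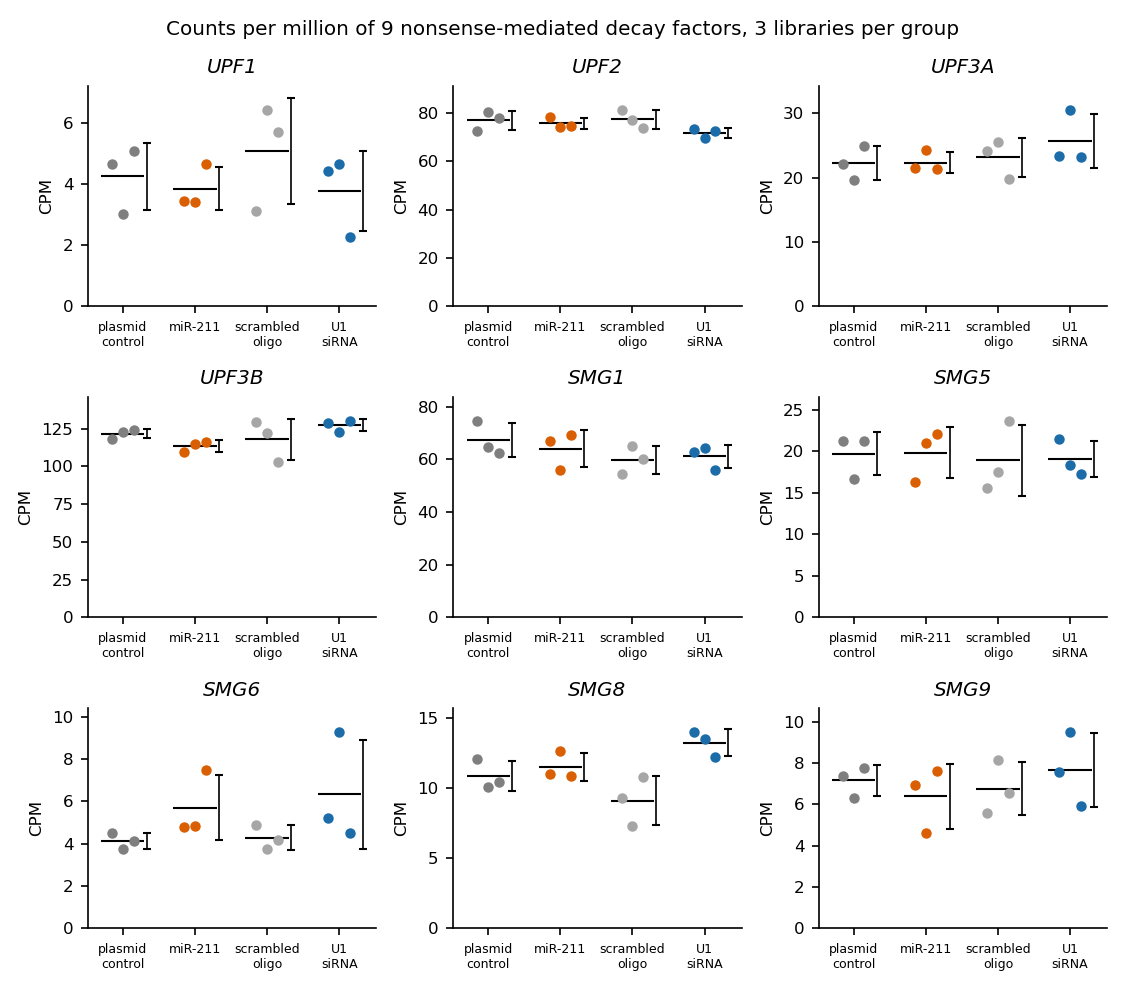
CPM of each factor (linear axes from 0, a panel per gene) in the 4 groups, with a point per library, a line for the mean of 3 libraries and a bar of 1 SD. SMG8 is higher in all U1 siRNA than in all scrambled oligo libraries (12.2 to 14.03 against 7.28 to 10.8 CPM), and SMG6 has 1 high library in miR-211 (7.502 CPM) and 1 in U1 siRNA (9.30 CPM).

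In the second comparison, cells given the siRNA against U1 were set against cells given the scrambled oligo, and again none of the 9 factors passed (edgeR, adjusted p 0.99992 for each), nor did any of the 12413 genes tested (0%). At an unadjusted p under 0.05 there was 1 factor by edgeR (SMG8), where 1.58% of all genes reached this, and 0 by DESeq2, where 0.156% of 46787 genes reached this and 0% passed after adjustment. The DESeq2 shares again include genes of low count that edgeR left out. Values of 6 of 9 factors were higher, against 54.7% of all genes, and the median log2 fold change was 0.11, against 0.015 over all genes tested. By mean CPM 7 of 9 were higher, against 57.8% of all genes tested. Without U1 siRNA replicate 2 the median was 0.033.

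SMG8, which holds the SMG1 kinase inactive, had the lowest unadjusted p of the factors (edgeR), while the log2 fold change of SMG6 was larger. SMG8 had 14.03, 13.5 and 12.2 CPM after U1 siRNA and 9.27, 7.28 and 10.8 CPM after the scrambled oligo. All U1 siRNA libraries were higher than all controls, and the log2 fold change of 0.51 (SE 0.18, 95% interval 0.13 to 0.90) did not pass the test over all genes (edgeR, unadjusted p 0.0139, adjusted p 0.99992). It rested on 43 to 100 counts per library and ran from 0.39 to 0.66 when 1 library was left out. It was 0.52 without U1 siRNA replicate 2, 0.39 without scrambled oligo replicate 2, and 0.65 and 0.37 in the separate strand columns. SMG9, its partner, had 7.67 ± 1.80 against 6.76 ± 1.28 CPM (SD, n = 3 each) and a log2 fold change of 0.17 (SE 0.23), which was 0.033 without U1 siRNA replicate 2. The kinase SMG1 had 61.1 ± 4.36 against 59.8 ± 5.33 CPM.

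UPF2 was the other factor whose groups did not overlap, with 73.5, 69.5 and 72.5 CPM after U1 siRNA and 81.4, 77.2 and 73.6 CPM after the scrambled oligo. The step between the groups was small, a log2 fold change of -0.11 (SE 0.088, edgeR, unadjusted p 0.224, adjusted p 0.99992). These 2 of 9 (22.2%) compare with 6.45% of all genes tested. UPF1 had 4.41, 4.65 and 2.26 CPM after U1 siRNA and 3.13, 6.44 and 5.70 CPM after the scrambled oligo. The groups overlapped across a wide spread, with a log2 fold change of -0.44 (SE 0.35) that was -0.19 without U1 siRNA replicate 3, -0.25 without scrambled oligo replicate 2 and -0.69 without scrambled oligo replicate 1. UPF3B had 127 ± 3.94 against 118 ± 13.5 CPM, with the lowest value, 103 CPM, in scrambled oligo replicate 3.

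SMG6 again had a raised value, 5.20, 9.30 and 4.53 CPM with U1 siRNA against 4.91, 3.73 and 4.198 CPM after the scrambled oligo. Here 1 library set the mean: replicate 2, the library with 44.5% of pairs outside exons, was high, and the others overlapped the controls. The log2 fold change of 0.52 (SE 0.30) became 0.20 without that library, and it was 0.083 and 0.47 in the separate strand columns. SMG6 has the longest span of the 9 genes, 244 kb, and the part of reads outside exons in its value was not tested. UPF3A had 23.3, 30.6 and 23.2 CPM after U1 siRNA and 24.1, 25.6 and 19.8 CPM after the scrambled oligo, and its log2 fold change of 0.14 was 0.031 without the same library. SMG5 had 19.0 ± 2.17 against 18.9 ± 4.26 CPM.

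How large a change the libraries could have missed differs between the factors. With miR-211 the 95% intervals of 6 of 9 factors, all but UPF1, SMG6 and SMG9, lay within 1.5-fold of no change, against 64.9% of all genes tested. For UPF2 the interval ran from 0.884-fold to 1.14-fold, for UPF3B from 0.849-fold to 1.07-fold and for UPF1 from 0.634-fold to 1.35-fold. With U1 siRNA 5 of 9 lay within that limit, against 60.2% of all genes tested. The intervals ran from 0.808-fold to 1.06-fold for UPF2 and from 0.883-fold to 1.17-fold for SMG1, but from 0.432-fold to 1.26-fold for UPF1 and from 0.908-fold to 2.27-fold for SMG6. The effects of miR-211 and of U1 siRNA differed for none of the factors in the test of the interaction over all 12 libraries (edgeR, adjusted p 0.999 for each, 0 at an unadjusted p under 0.05), while 0.0074% of 13520 genes passed it and 1.73% had an unadjusted p under 0.05. The difference for SMG8 was -0.40 on the log2 scale (SE 0.22, edgeR, unadjusted p 0.0851).

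**Figure D3:**
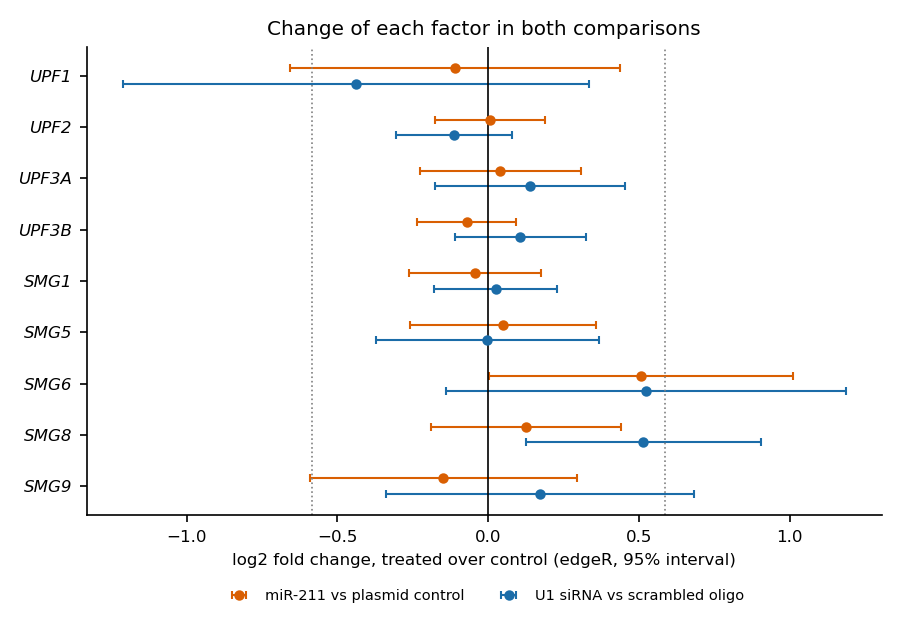
Log2 fold change of each factor (points, treated over control) with its 95% interval (bars) for miR-211 against control plasmid and U1 siRNA against scrambled oligo; dotted lines mark 1.5-fold. UPF2, UPF3B and SMG1 have narrow intervals around 0, and UPF1 and SMG6 have the wide ones (0.432-fold to 1.26-fold for UPF1 with U1 siRNA).

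Correlations between the factors had no common sign. With each gene's log2 CPM centred within its group, the 36 pairs of factors had correlations over 12 libraries from -0.69 (UPF2 and SMG5) to 0.82 (SMG1 and SMG9), with a median of 0.020, and 18 were positive. Between libraries the CPM of UPF2 varied by 4.71%, close to the 4.49% that counting alone gives at its depth, and that of UPF3B by 6.89% against 3.55%. SMG6 varied by 32.2% against 17.7%. Spread from counting weakens correlations, so these values cannot tell whether the factors varied together. The genes whose centred log2 CPM was most like the mean of the factors, among 7422 genes with a mean of at least 10 CPM, included DONSON (r = 0.98) and RBM33 (0.93). Without the 2 libraries farthest from the median these were 0.97 and 0.92. All 12 points share library totals and the share of pairs outside exons, and each gene was picked as a maximum, so the values are a description.

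Lists of genes that work with the factors were counted in the same way. Over all genes tested, 51.8% were higher in value with miR-211 and 54.7% with U1 siRNA (44.5% and 57.8% by mean CPM). Of 10 genes of the exon junction complex and its periphery, 0 passed in either comparison, 6 were higher in value with miR-211 (median log2 fold change 0.014) and 2 with U1 siRNA (-0.017). By mean CPM these counts were 4 and 4. The values ran from -0.093 for PNN, a splicing-linked junction protein, to 0.086 for RNPS1, a junction protein that promotes decay, with miR-211, and from -0.069 for PNN to 0.17 for EIF4A3, the core helicase, with U1 siRNA. Of 11 other cofactors, 0 passed, and 5 and 7 were higher in value (4 and 8 by mean CPM). The ends of this list were NCBP1, a subunit of the nuclear cap-binding complex (-0.079), and TELO2, which helps to mature kinases of the SMG1 family (0.21), with miR-211, and NCBP2, the other cap-binding subunit (-0.14), and DHX34, a helicase of the pathway (0.45, SE 0.24), with U1 siRNA. DHX34 had 7.32 ± 0.958 against 5.28 ± 1.26 CPM there (edgeR, unadjusted p 0.0898, adjusted p 0.99992), and the 95% interval of its log2 fold change ran from -0.081 to 0.98. Its groups did not overlap there, and those of NCBP2 did not in either comparison. Over all genes tested this held for 9.70% with miR-211 and 6.45% with U1 siRNA.

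Among 7 genes of translation termination and poly(A) binding, 0 passed, and 2 and 3 were higher in value, also by mean CPM. GSPT1, which codes for the release factor eRF3a, had 79.2 ± 3.85 CPM with miR-211 and 94.3 ± 5.31 with the control plasmid (log2 fold change -0.22, SE 0.084, edgeR, unadjusted p 0.0195, adjusted p 0.996), with no overlap between the groups. The highest of this list was its paralog GSPT2, at 0.14 with miR-211 and 0.20 with U1 siRNA, where the lowest was ABCE1, a ribosome recycling factor (-0.15). With U1 siRNA the groups of GSPT2 and of ABCE1 did not overlap. Shares of all genes without overlap were 9.70% with miR-211 and 6.45% with U1 siRNA. With the replicate block, since same-numbered plasmid libraries deviated together, 3 of 7 had an unadjusted p under 0.05 with miR-211, all lower in value: GSPT1 (0.0108), ABCE1 (0.0218) and ETF1, the release factor that reads stop codons (0.0474), with adjusted p of 0.627, 0.645 and 0.666 (edgeR). These compare with 7.43% of all genes tested. Of 11 decapping and decay genes tested of 12 listed, 0 passed, and 8 and 6 were higher in value (5 and 6 by mean CPM). They ran from -0.21 for DIS3, an exosome nuclease, to 0.16 for EDC3, a decapping enhancer, with miR-211, and from -0.20 for CNOT7, a deadenylase, to 0.13 for DCP1B, a decapping cofactor, with U1 siRNA. The groups of CNOT7 did not overlap in either comparison. With the replicate block 3 of 11 had an unadjusted p under 0.05 with miR-211, again all lower in value: DIS3 (0.0139), the decapping enzyme gene DCP2 (0.0162) and CNOT7 (0.0271), with adjusted p of 0.631, 0.631 and 0.645 (edgeR).

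Transcripts that the literature reports as sensitive to the pathway are often used as a readout of it, and 0 of 22 passed in either comparison. With miR-211, 13 had a higher value (59.1%, against 51.8% of all genes tested), and the median log2 fold change was 0.016. By mean CPM 9 were higher (40.9%, against 44.5%). With the replicate block 3 that were higher (RPL3, RPL12 and SNHG15) and 1 that was lower (SRSF6) had an unadjusted p under 0.05, and 0 of 22 passed (edgeR, lowest adjusted p 0.625). Among all genes tested, 7.43% had such an unadjusted p with the block. The values ran from -0.18 for ATF3 to 0.28 for GADD45B, both stress-induced genes. RPL3, a ribosomal protein gene with a reported decay-sensitive isoform, had 5452 ± 199 against 5001 ± 130 CPM (log2 fold change 0.15, SE 0.070, edgeR, unadjusted p 0.0448, adjusted p 0.996), with no overlap between the groups. Groups of SRSF3 (-0.090) did not overlap either, against 9.70% of all genes tested. With U1 siRNA, 5 of 22 were higher in value (22.7%, against 54.7% of all genes tested) and 17 lower. The median was -0.052, against 0.015 over all genes tested, where the 5% and 95% points were -0.22 and 0.50. Unlike those of the factors, the values of this and the other lists were not taken without U1 siRNA replicate 2. That library had 44.5% of pairs outside exons, and its part in these counts was not tested. GAS5, a noncoding host of small nucleolar RNAs and a standard substrate of the pathway, had 386 ± 20.3 CPM after U1 siRNA and 434 ± 13.4 after the scrambled oligo (log2 fold change -0.18, SE 0.063, edgeR, unadjusted p 0.0153, adjusted p 0.99992), with no overlap between the groups. Groups of RPL3 did not overlap here either, at a log2 fold change of only 0.019 (edgeR, unadjusted p 0.778), against 6.45% of all genes tested. The ends of the list were ZFAS1, another such host (-0.19), and UPP1, a uridine phosphorylase (0.21). A gene count sums all isoforms, so a rise of a minor isoform with an early stop codon may not show in these values.

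**Figure D4:**
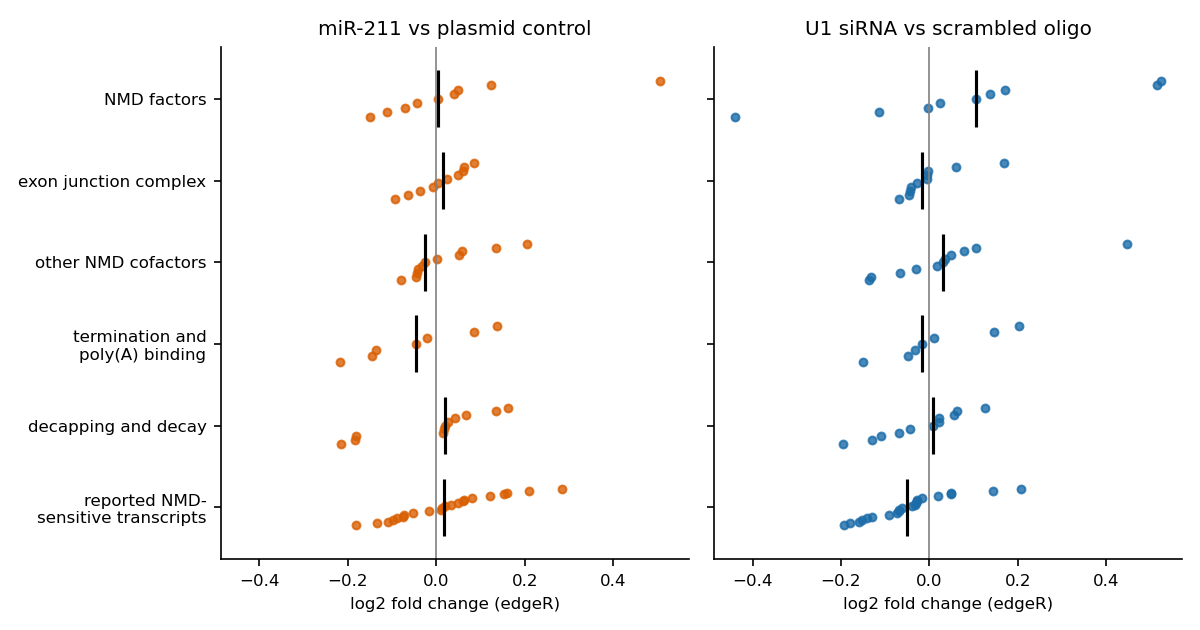
Log2 fold change of each tested gene (points) in 6 lists around the pathway, for miR-211 against control plasmid (left) and U1 siRNA against scrambled oligo (right), with a black line at each list's median. The list medians lie between -0.052 and 0.11, and the widest points in the factors' list are SMG6, SMG8 and UPF1.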

How the data were processed

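The authors deposited read counts per gene for 12 libraries as STAR gene count tables, each holding 1 unstranded column and 2 strand columns; per the submitters' processing notes STAR 2.7.2a was named, and GRCh37 and hg19. All 58735 identifiers are those of GENCODE 29, made on GRCh38, so the build of the alignment is uncertain and coordinates are GENCODE's. How RNA was selected, and the strand protocol, are not given in the sources used here. Strand totals differed by 0.907 to 1.01 times, and the unstranded column was used. CPM divides by a library's gene total; the 4 summary lines were left out. Each comparison was fitted on its 6 libraries with edgeR 4.0.16 in R 4.3.3 (TMM, filterByExpr, quasi-likelihood test, Benjamini-Hochberg adjusted p under 0.05), with DESeq2 1.42.0 as an alternative; all 9 factors passed the filter. The scripts were tested on simulated data. The factors, lists and tests were chosen with earlier results of these data known. All factors were named, and of each list except those of cell type markers the ends and any gene at an unadjusted p under 0.05, in the plasmid comparison also with the block (the latter chosen after values were seen). The 3 most similar genes came from Pearson correlation on log2(CPM + 0.5), and 1 of them is not reported here.

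Same-numbered libraries deviated together in the plasmid comparison (correlations 0.254, 0.244 and 0.259, all above 0.1), so numbers were taken to pair them there. In the oligo comparison these were 0.124, 0.109 and -0.016, and they were not. The main tests, the interaction and the SEs and intervals printed used no block, so they ignore the pairing of the plasmid libraries. Values with the replicate block come from an alternative fit. The labels do not state that replicates came from separate cultures. The p-values therefore refer to variation among the libraries alone, and this may be technical.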

Additional observations from a re-analysis of the deposited data

How the results depend on the processing

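No factor passed the test in either comparison, or in the interaction, under any alternative run: RLE scaling, DESeq2, no filter on low counts, either strand column, the replicate block or the removal of any 1 library (for the interaction RLE scaling, the block and removal of U1 siRNA replicate 2). With the replicate block, 0 factors passed, the lowest adjusted p being 0.645 for SMG6 with miR-211 (edgeR, log2 fold change 0.51). The median log2 fold change of the factors ran from -0.048 to 0.046 with miR-211 and from 0.028 to 0.13 with U1 siRNA when 1 library was left out. Directions of values near 0 were not stable. With miR-211, UPF2 was -0.0012 by RLE, -0.019 by DESeq2, -0.0075 without the filter and -0.0041 in strand column 4. UPF1 was 0.095 in strand column 3, and UPF3A -0.16, SMG8 -0.051 and SMG9 0.16 in strand column 4. With U1 siRNA, SMG1 was -0.022 by DESeq2 and -0.051 without the filter, SMG9 -0.00069 in strand column 3, and SMG5 0.056 in strand column 4 and 0.011 with the replicate block. Leaving out 1 library gave with miR-211 -0.30 to 0.046 for UPF1, -0.055 to 0.049 for UPF2, -0.040 to 0.13 for UPF3A, -0.10 to 0.035 for SMG1, -0.048 to 0.15 for SMG5 and -0.31 to 0.044 for SMG9, and with U1 siRNA -0.039 to 0.081 for SMG1 and -0.13 to 0.20 for SMG5. The cause was not tested. With U1 siRNA, UPF1, UPF2, UPF3A, UPF3B, SMG6 and SMG8 kept their direction in all 12 alternatives, and with miR-211 UPF3B and SMG6 did. Depth limits UPF1, SMG6 and SMG9 most, with 13 to 61 counts per library. The length used for levels was varied after the data were seen, as was counting directions by plain mean CPM, and the ratio of the highest to the lowest factor was 79.1 or 63.7.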
